A study of Mus musculus with 12 samples.

Results

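The small nucleolar RNA (snoRNA) host genes Snhg1, Snhg3, Snhg5, Snhg6, Snhg8, Snhg12 and Gas5 and the nuclear long noncoding RNAs Malat1 and Neat1 were examined in mouse bone marrow-derived macrophages (BMDMs). These 9 genes were taken by symbol from 24421 rows of a gene count table. All 9 were among the 11468 genes that passed the filter on low counts and were tested. Total RNA was sequenced from BMDMs of C57BL/6 mice, cultured with M-CSF (100 ng/mL) over 5 days, the medium being changed on day 3. Cells were exposed for 4 hours to ovalbumin (Ova) or to IgG-bound ovalbumin, an immune complex (IC) that cross-links Fc gamma receptors. Each was combined with I-BET151 (iBET) at 5.0 µM or with the solvent DMSO, given in the labels as 5%. The 4 groups, called DMSO Ova, DMSO IC, iBET Ova and iBET IC, held 3 libraries each. Each group had 1 library for each of the replicate letters A, B and C, which are read here as 3 mice shared by the groups. Whether the drug preceded the stimulus is uncertain, since the labels have them added together and the study has the drug added earlier. iBET blocks the bromodomains of the BET proteins, which bind acetylated histones and recruit the transcription elongation machinery.

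Host genes carry snoRNAs in their introns. After splicing, the introns are trimmed to mature snoRNAs, which guide ribose methylation (C/D box class) or pseudouridylation (H/ACA class) of ribosomal RNA in the nucleolus, while the joined exons make a short noncoding transcript that is often removed by nonsense-mediated decay. Malat1 is a very abundant RNA of nuclear speckles, the stores of splicing factors, and Neat1 is the scaffold of paraspeckles, bodies that form around it and hold RNA-binding proteins. Neat1 is made in a short and a long form, which a count per gene does not separate.

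Total counts were 7.55 M to 17.4 M per library. The ribosomal precursor Rn45s took 77.38% of the counts in 1 library, DMSO Ova of mouse A, (95% Wilson interval 77.35% to 77.41%, counting error only), which left 1.77 M counts, whereas the other 11 libraries held 7.25 M to 16.9 M counts outside Rn45s. All 7 macrophage markers were present, with a summed level of 6812 to 9813 CPM (counts scaled to a common library size, here outside Rn45s). The 4 neutrophil markers with a row summed to 6.22 to 41.8 CPM with overlapping ranges in the 4 groups. The summed markers of dendritic cells, B cells, T and NK cells and stroma reached at most 1.67 CPM, and those of mast cells and erythroid cells were at 0 in every library.

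In GENCODE vM21 on mm10, the build of the count table, Malat1 lies on the minus strand at chr19:5795690-5802672 and Neat1 on the same strand at chr19:5824708-5845478, 22035 bases away. Snhg12 (chr4:132308623-132311024, plus strand) and Snhg3 (chr4:132348014-132353686, minus strand) are 36989 bases apart. Snhg1 lies at chr19:8723475-8726443 on the plus strand, Snhg5 at chr9:88521050-88522929, Snhg6 at chr1:9941959-9944118 and Snhg8 at chr3:123507552-123508404 on the minus strand, and Gas5 at chr1:161034422-161038539 on the plus strand.

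Promoters of host genes are known for a pyrimidine-rich start, the feature that places transcripts under growth-dependent control of translation. RefSeq start regions (GRCm38.p6) were found for 7 of the 9 genes, without Snhg6 and Neat1, and the 70 bases from 45 before to 25 after the start are shown to compare the host genes with Malat1. Capitals mark a TATA 20 to 40 bases upstream on the coding strand and a pyrimidine run (a C followed by at least 4 C or T) that begins within 10 bases of the start. Windows are at chr19:8723442-8723511 (Snhg1), chr4:132353662-132353731 (Snhg3), chr9:88522873-88522942 (Snhg5), chr3:123508312-123508381 (Snhg8), chr4:132308633-132308702 (Snhg12), chr1:161035121-161035190 (Gas5) and chr19:5802648-5802717 (Malat1).
Snhg1: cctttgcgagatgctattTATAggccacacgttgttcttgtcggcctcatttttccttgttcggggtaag
Snhg3: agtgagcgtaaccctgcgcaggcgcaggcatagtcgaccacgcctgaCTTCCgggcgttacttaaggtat
Snhg5: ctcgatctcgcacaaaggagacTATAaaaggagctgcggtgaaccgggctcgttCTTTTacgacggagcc
Snhg8: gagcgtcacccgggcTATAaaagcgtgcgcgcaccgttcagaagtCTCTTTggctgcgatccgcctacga
Snhg12: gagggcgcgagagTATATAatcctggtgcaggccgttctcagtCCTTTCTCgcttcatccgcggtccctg
Gas5: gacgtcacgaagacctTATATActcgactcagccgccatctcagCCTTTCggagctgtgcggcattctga
Malat1: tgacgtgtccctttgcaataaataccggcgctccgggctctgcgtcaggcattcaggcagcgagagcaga

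A pyrimidine run began within 10 bases of the start of Snhg3, Snhg5, Snhg8, Snhg12 and Gas5, that is 5 of the 7 genes with an entry, and 29.0% of all 32851 RefSeq start regions held one. A TATA stood upstream of Snhg1, Snhg5, Snhg8, Snhg12 and Gas5, against 5.81% of all start regions. Malat1 held neither. Gas5 has 2 RefSeq starts, of which the downstream one, which is shown, held both and the upstream one neither. Both windows were chosen after the sequences were seen, so these are descriptions of the letters. The E-box CACGTG, searched on both strands of the start regions, was in none of the 8 start regions of these genes and in 7.15% of all of them.

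Levels spanned a wide range. Malat1 averaged 11708 CPM over the 12 libraries and ranked 3 of 11468 genes, and it took between 0.730% and 2.15% of the counts outside Rn45s. Gas5 averaged 156 CPM and Neat1 193 CPM. The Gas5 mean was raised by the DMSO libraries of mouse A, at 843 CPM with Ova and 311 CPM with IC. Its median in the other 10 libraries was 71.7 CPM. The 6 Snhg genes were low, from 2.51 CPM for Snhg3 to 10.9 CPM for Snhg1, and single libraries held as few as 8 counts of Snhg3 and 5 of Snhg6. Per kilobase of annotated exon the order was Malat1 (1677 CPM per kb), Gas5 (41.4), Neat1 (9.28), Snhg8 (5.49), Snhg5 (4.50), Snhg1 (3.68), Snhg6 (3.61), Snhg12 (2.60) and Snhg3 (2.55). Below Malat1, each gene differed from the next in this order by less than the larger of their SDs over the 12 libraries (60.5 CPM per kb for Gas5, 5.52 for Neat1 and 0.505 to 1.17 for the Snhg genes). Both the value and the SD of Gas5 per kilobase include those DMSO libraries of mouse A. The annotated exons of Snhg1, Snhg8 and Snhg12 cover their whole span, introns included. Their values per kilobase therefore take in intron bases and any intron reads, and the net effect was not measured. Those of Gas5 cover 3760 bases of a span of 4.118 kb, and those of Snhg5 cover 1730 bases of 1.88 kb. Snord78 and Snord80 lie within the annotated exons of Gas5 and have no row of their own, so counts of Gas5 may include their reads. The same holds for Snord50a and Snord50b in Snhg5 and for snoRNAs with Gm numbers in Snhg1 and Gas5. Part of Snora73a, also without a row, lies in the exons of Snhg3.

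The comparison of iBET with DMSO asked how transcripts respond to BET inhibition. In Ova, 2 of the 9 genes were called at an adjusted p under 0.05, both higher (edgeR quasi-likelihood test, Benjamini-Hochberg over all genes). Of all genes tested, 31.3% were called in this comparison, 17.1% higher and 14.2% lower, so the count among the 9 was no larger than the background. In IC, 2 of the 9 were called, 1 higher (Neat1) and 1 lower (Snhg12), against 34.8% of all genes, 19% higher and 15.8% lower. Over the 9 genes the median log2 fold change was 0.19 in Ova and -0.39 in IC, beside 0.02 and -0.0037 over all genes. In bulk RNA, a change in the number of cells that make a transcript and a change in the amount per cell cannot be told apart.

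**Figure D1:**
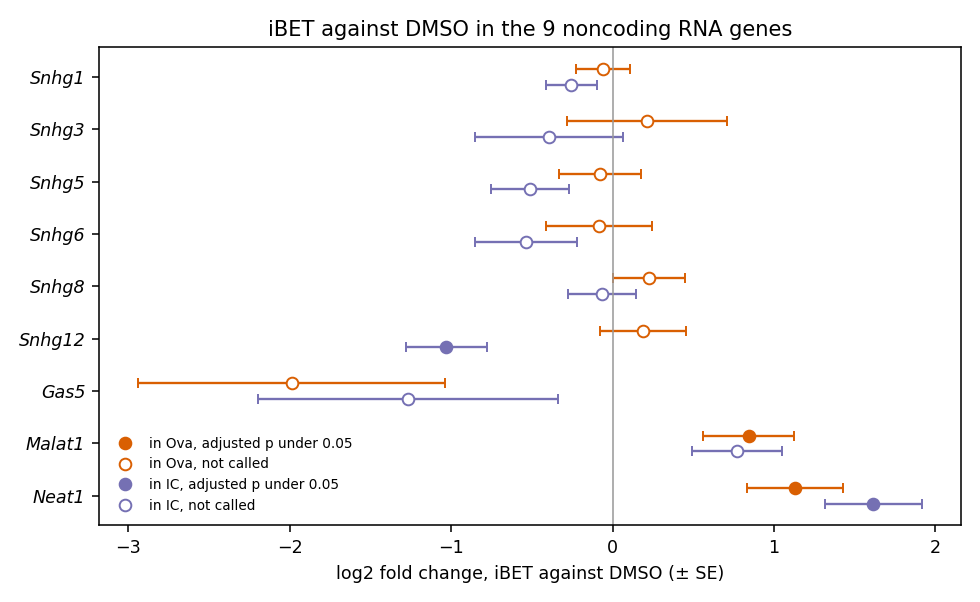
Log2 fold change of iBET against DMSO (x axis, ± SE from the fit to 12 libraries) for each of the 9 genes, in Ova (orange) and in IC (violet); filled points passed an adjusted p of 0.05. Malat1 and Neat1 lie to the right in both stimuli, Snhg12 lies left of 0 in IC, and Gas5 has the widest errors.

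Neat1 was higher with iBET under both stimuli. In mice A, B and C its level was 114, 129 and 84.6 CPM in DMSO Ova and 176, 292 and 248 CPM in iBET Ova. With IC it was 96.4, 131 and 85.5 CPM in DMSO and 243, 476 and 240 CPM in iBET. Every iBET library lay above every DMSO library, and each of the 3 mice showed the rise under each stimulus. The rise was 2.19-fold in Ova (log2 1.13, SE 0.30, adjusted p = 0.0147) and 3.07-fold in IC (log2 1.62, SE 0.30, adjusted p = 0.00176). The difference between these 2 rises did not pass the test of the interaction (adjusted p = 1.00). The call in IC held under all 27 alternatives. The Ova call ended when any of 3 libraries was omitted: DMSO Ova of mouse A (edgeR adjusted p = 0.0506) or C (0.0555) and iBET Ova of mouse B (0.0522), while the log2 fold change stayed between 0.94 and 1.31 over all alternatives.

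Malat1 was 11521, 6827 and 5846 CPM in DMSO Ova and 11544, 16971 and 14864 CPM in iBET Ova. With IC it was 11129, 9534 and 6279 CPM in DMSO and 14840, 18667 and 12474 CPM in iBET. The iBET libraries lay above the DMSO libraries of the same stimulus, although in Ova mouse A was nearly level between the treatments and mice B and C carried the rise. The DMSO Ova library of mouse A was the one with 77.38% Rn45s and 1.77 M other counts. Whether that composition affected its Malat1 value was not tested. The fold change was 1.79 in Ova (log2 0.84, SE 0.28, adjusted p = 0.0402), which was called. In IC it was 1.71 (log2 0.77, SE 0.28, adjusted p = 0.0525), which was not called, though it was with mouse as a block (adjusted p = 0.0308) and in 13 of 27 alternatives in all. The Ova call ended when DMSO Ova of mouse B (adjusted p = 0.125) or C (0.131), iBET Ova of mouse B (0.125) or C (0.0821) or iBET IC of mouse A (0.0561) was omitted. The ratio of Malat1 to Neat1 in CPM was 53.1 to 101 in DMSO Ova and 58.2 to 65.6 in iBET Ova, ranges that overlapped. With IC it was 72.9 to 115 in DMSO and 39.2 to 61.2 in iBET, ranges that did not overlap. The ratio was not tested.

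**Figure D2:**
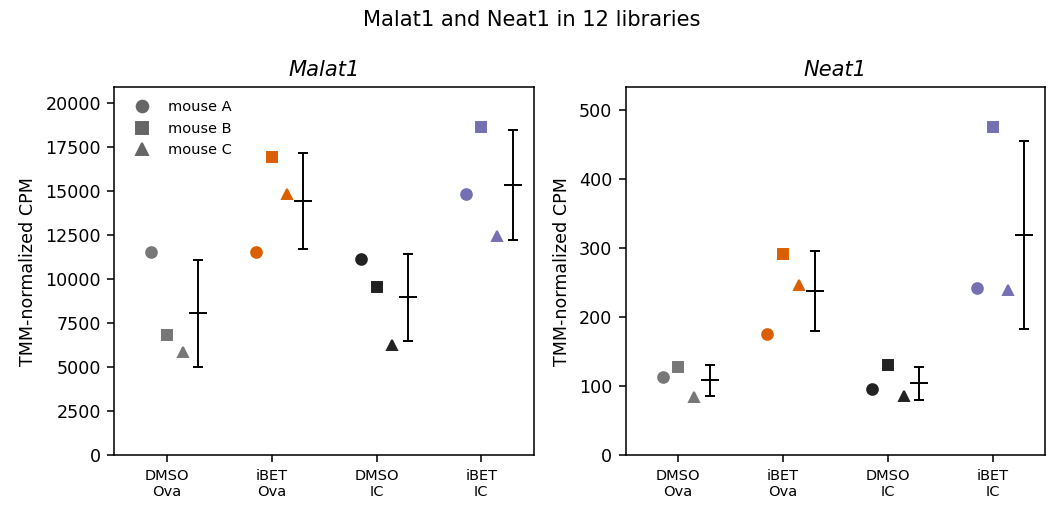
TMM-normalized CPM (y axis, from 0) of Malat1 and Neat1 in each library by group, with the mouse as the symbol and mean ± SD (n = 3) as the bar. Neat1 reached 131 CPM at most in DMSO and 176 CPM at least in iBET, and in Malat1 the mouse A libraries of DMSO Ova and iBET Ova sat at the same height. DMSO Ova of mouse A is the library with 77.38% Rn45s.

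Snhg12, which hosts both H/ACA and C/D box snoRNAs, was the one Snhg gene called. Its level was 5.65, 5.29 and 5.22 CPM in DMSO Ova, 4.86, 8.27 and 5.19 CPM in iBET Ova, 11.1, 7.37 and 8.86 CPM in DMSO IC and 5.39, 4.65 and 3.12 CPM in iBET IC. All 3 DMSO IC libraries lay above all DMSO Ova and all iBET IC libraries. With IC present, iBET lowered it 2.04-fold (log2 -1.03, SE 0.25, adjusted p = 0.0072), in 3 of 3 mice. The call was lost in 1 of 27 alternatives, the fit without mouse C (adjusted p = 0.0760). In Ova the log2 fold change with iBET was 0.19 (SE 0.27, adjusted p = 0.634), and mice A and C did not share the rise of mouse B. The change with IC was 0.78 in DMSO (SE 0.26, unadjusted p = 0.0116 in the edgeR fit, adjusted p = 0.219). In iBET it was -0.44 (SE 0.26, adjusted p = 0.765). The interaction, the IC change in iBET minus that in DMSO, was -1.22 (SE 0.37) and negative in 3 of 3 mice, with an unadjusted p of 0.00599 in the edgeR fit that did not pass adjustment (1.00). These values rest on counts of 11 to 132 per library.

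The other 5 Snhg genes were not called in either stimulus. Snhg5, a C/D box host, was 12.5, 9.79 and 6.01 CPM in DMSO IC and 6.56, 5.72 and 7.67 CPM in iBET IC, lower in mice A and B and higher in C. Its log2 fold change in IC was -0.51 (SE 0.24, adjusted p = 0.119), which became -0.76 (adjusted p = 0.0141) when DMSO IC of mouse C was omitted. Snhg6, another C/D box host, had a log2 fold change of -0.54 in IC (SE 0.31, adjusted p = 0.209) and -0.08 in Ova (SE 0.33). Its libraries ranged from 2.57 to 7.57 CPM, and the highest was DMSO IC of mouse A. Snhg1 ranged from 8.39 to 13.6 CPM and differed by -0.26 in IC (SE 0.16, adjusted p = 0.237) and -0.06 in Ova (SE 0.17). Its DMSO IC libraries, at 11.8 to 13.6 CPM, lay just above its iBET IC libraries, at 8.39 to 11.7 CPM. The H/ACA host Snhg8 ranged from 3.60 to 5.65 CPM, with log2 fold changes of 0.23 in Ova (SE 0.22) and -0.07 in IC (SE 0.21).

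Snhg3, whose introns hold H/ACA snoRNAs, was spread among mice in DMSO and had close values in iBET. In mice A, B and C it was 4.11, 2.53 and 1.24 CPM in DMSO Ova and 4.88, 2.31 and 1.05 CPM in DMSO IC, the same order of mice. In iBET it was 2.55, 2.54 and 2.59 CPM with Ova and 2.08, 2.13 and 2.16 CPM with IC. The log2 fold changes of 0.21 in Ova (SE 0.50) and -0.39 in IC (SE 0.46) average mice that went in opposite directions: in IC the per-mouse differences were -1.16 in A, -0.11 in B and 0.92 in C. The difference in spread was not tested, and Snhg3 counts were 8 to 58 per library. The iBET libraries held 18 to 39 counts, whose counting error is wider than the spread seen there. That tightness is therefore no measure of how mice vary under iBET. The highest values in DMSO were those of mouse A, whose DMSO Ova library held 77.38% Rn45s and 8 counts of Snhg3. Snhg3 shares 135 exon bases with Rcc1 and 159 with Snora73a, which has no row, both on the same strand, so its counts are uncertain.

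**Figure D3:**
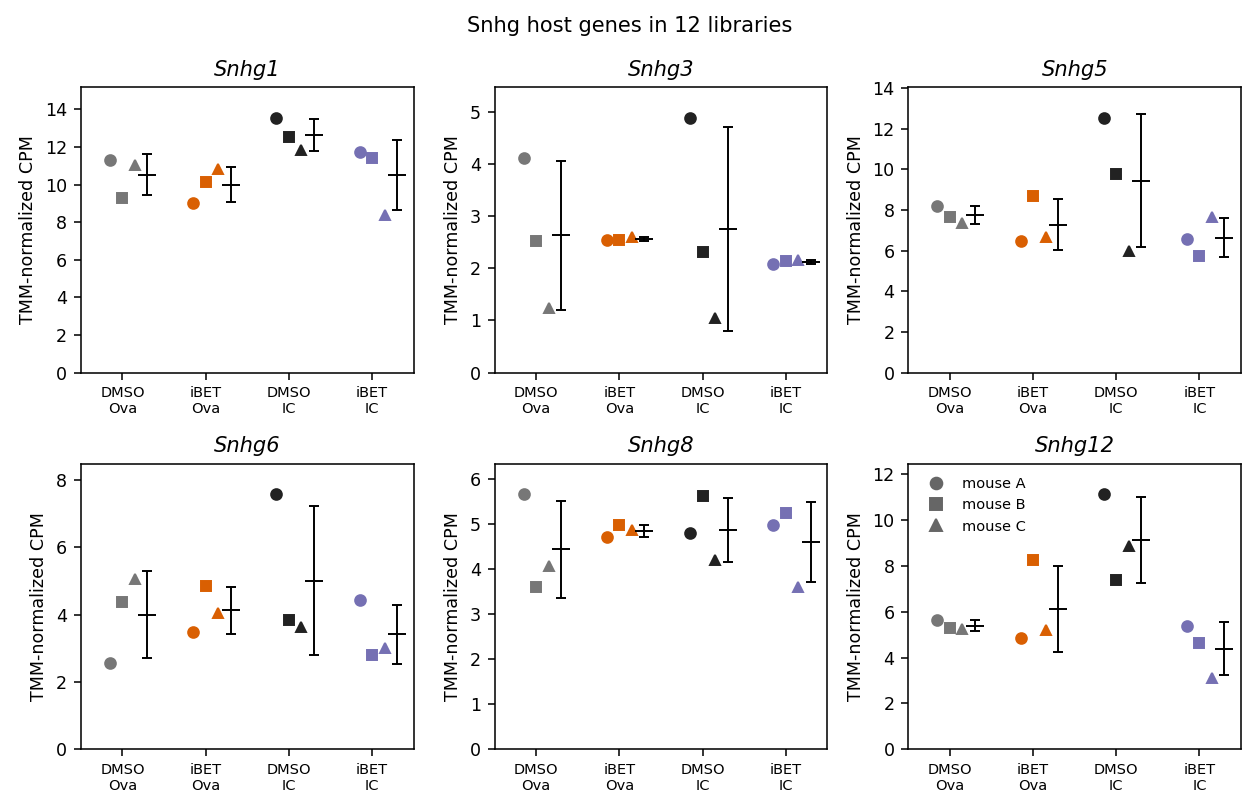
TMM-normalized CPM (y axes, from 0) of the 6 Snhg genes in each library by group, with the mouse as the symbol and mean ± SD (n = 3) as the bar. Snhg12 stands highest in DMSO IC, with all 3 libraries above 7.3 CPM. Snhg3 is spread by mouse in the DMSO groups and tight in the iBET groups, on 8 to 58 counts per library. This difference in spread was not tested.

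Gas5, named for its rise in growth-arrested cells and a host of C/D box snoRNAs, stood apart in 2 libraries of 1 mouse. It was 843 CPM in DMSO Ova and 311 CPM in DMSO IC of mouse A, and 51.7 to 91.9 CPM (median 71.7) in the other 10. In mice B and C it was 57.7 and 63.9 CPM in DMSO Ova, 91.9 and 83.0 CPM in iBET Ova, 77.0 and 81.6 CPM in DMSO IC, and 76.5 and 51.7 CPM in iBET IC. Its log2 fold change in Ova was -1.99 (SE 0.95, adjusted p = 0.140). In IC it was -1.27 (SE 0.93, adjusted p = 0.320). Without the DMSO libraries of mouse A these became 0.34 (adjusted p = 0.156) and -0.31 (adjusted p = 0.192), so the direction in Ova turned. Without mouse A altogether, the Ova value was 0.50 with an adjusted p of 0.0282.

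The same 2 libraries stood apart in their small RNAs. Rows named as snoRNAs or small Cajal body RNAs summed to 729.6 CPM, counted outside Rn45s, in DMSO Ova and 439 CPM in DMSO IC of mouse A, against 159 to 231 CPM in the other 10. Rn45s was 77.4% and 7.83% of their counts, against at most 4.40% elsewhere. The parts of library composition and of snoRNA reads within the annotated Gas5 exons in the Gas5 values were not tested.

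**Figure D4:**
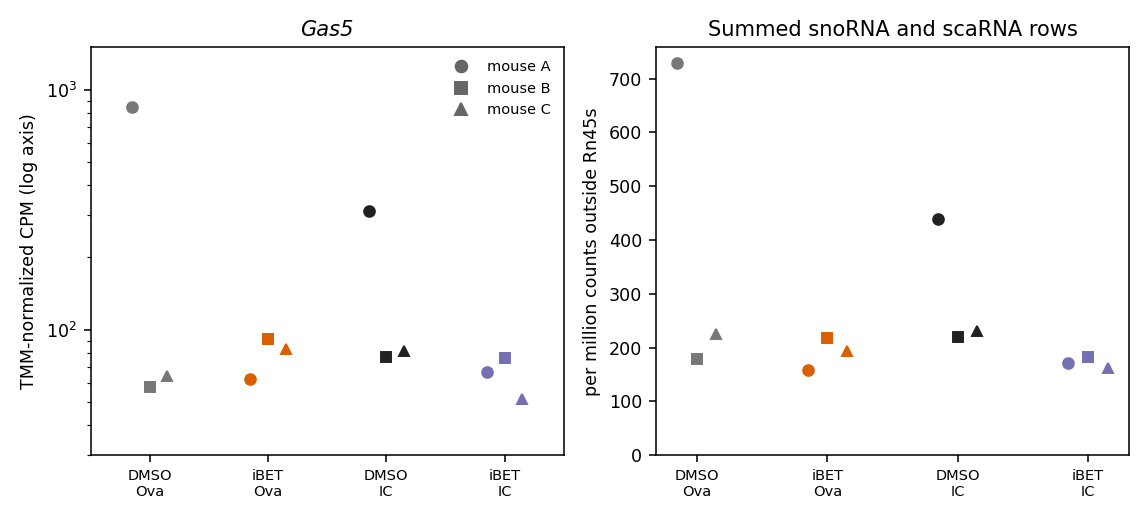
Left, Gas5 in TMM-normalized CPM on a log axis; right, the summed snoRNA and small Cajal body RNA rows in CPM outside Rn45s, by group with the mouse as the symbol. The DMSO libraries of mouse A are the 2 highest in both panels, at 843 and 311 CPM of Gas5 and 729.6 and 439 CPM of small RNAs.

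Of the snoRNAs that lie within the host genes, 8 had rows in the count table, and their values are uncertain because reads can be shared with the host and short RNAs are poorly recovered. As CPM outside Rn45s, Snord87 of Snhg6 was 50.9 in DMSO Ova of mouse A and 9.65 in DMSO IC of the same mouse, against 1.38 to 5.36 in the other 10. Snord99 of Snhg12 was 19.8 in DMSO Ova of mouse A, and Snord47 of Gas5 was 12.4, against at most 5.63 and 4.09 in the 10. In DMSO IC of mouse A, Snord99 was 4.49 and Snord47 was 2.87, each within the range of the 10. Snord22 of Snhg1 was 19.8 and 17.2 in the DMSO libraries of mouse A, against 6.18 to 12.7. Snora24 of Snhg8 was 1.53 to 3.96 in all 12 libraries. Snora44, Snora61 and Snora16a of Snhg12 had 79, 42 and 19 counts in all 12 libraries together.

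IC against Ova, the response to Fc gamma receptor engagement, moved none of the 9 genes past the threshold. In DMSO 0 of 9 were called, against 1.22% of all genes, and 1 of the 9 (Snhg12) and 1341 of all genes had an unadjusted p under 0.05 in the edgeR fit. In iBET 0 of 9 were called, against 0.349% of all genes, and 0 of the 9 and 860 of all genes had an unadjusted p under 0.05. Adjusted p-values of the 9 were at least 0.219 in DMSO and at least 0.765 in iBET. Log2 fold changes of the 9 had a median of 0.23 in DMSO, with 7 above 0, and of -0.13 in iBET, with 3 above 0. The interaction was called in 0 of 9 genes and in 0% of all genes, with 1 of the 9 and 292 of all genes at an unadjusted p under 0.05. DESeq2 called 0 of the genes it judged in these 3 comparisons, that is 8 with IC in DMSO, 7 with IC in iBET and 8 in the interaction, since it gave no p for Gas5 and no adjusted p for Snhg3 with IC in iBET.

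Coding genes at the same loci were read beside their noncoding neighbours. Slc3a2, the heavy chain of amino acid transporters, starts 106 bases from Snhg1 on the other strand and rose with iBET from 213 ± 11.3 to 323 ± 25.2 CPM in Ova (SD, n = 3; log2 0.60, SE 0.10, adjusted p = 0.000779). In IC it rose from 242 ± 25.2 to 379 ± 7.94 CPM (log2 0.65, SE 0.10, adjusted p = 0.000369). Snhg1 was not called in either. Rcc1, the chromatin-bound exchange factor of Ran, fell with iBET in IC from 25.0 ± 1.59 to 18.5 ± 0.490 CPM (SD, n = 3; log2 -0.43, SE 0.14, adjusted p = 0.0335), in 3 of 3 mice, and was 16.6 ± 2.27 and 16.8 ± 2.89 CPM in DMSO Ova and iBET Ova. The Rcc1 call was lost in 8 of 27 alternatives, among them those that omitted DMSO IC of mouse C or any 1 of the 3 iBET IC libraries. Zbtb37, which overlaps Gas5 on the other strand, was 3.93 to 6.35 CPM as group means and was not called in any comparison. Mcmdc2, which overlaps Snhg6 on the other strand, was too low to be tested.

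Of 14 other snoRNA host genes, 9 were tested. With iBET in Ova 0 of the 9 were called, and in IC 3 fell (Snhg7, Snhg15 and Snhg17) and none rose, with medians of -0.34 and -0.73 beside 0.02 and -0.0037 over all genes. Of all genes, 31.3% were called in Ova and 15.8% were called lower in IC. In Ova 1 of the 9 had an unadjusted p under 0.05 in edgeR, and DESeq2 called 0. Snhg7 fell from 2.36 ± 0.798 to 0.796 ± 0.344 CPM in IC (SD, n = 3; log2 -1.52, SE 0.42, adjusted p = 0.0147), a call that ended when DMSO IC of mouse B or iBET IC of mouse A or C was omitted. In DMSO the median IC change of these 9 was 0.55, with 0 called by edgeR or DESeq2 and 3 at an unadjusted p under 0.05.

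Of 20 other noncoding RNAs, 14 were tested, of which 2 rose and 4 fell with iBET in Ova, and 1 rose and 5 fell in IC. Their median log2 fold changes were -0.23 and -0.56, beside 0.02 and -0.0037 over all genes. Of all genes, 31.3% and 34.8% were called in these comparisons. Mir22hg, the host of a microRNA, rose from 17.3 ± 3.65 to 33.2 ± 2.24 CPM in Ova (SD, n = 3; log2 0.99, SE 0.21, adjusted p = 0.00388). With IC it went from 10.3 ± 2.53 to 25.1 ± 5.52 CPM (log2 1.28, SE 0.21, adjusted p = 0.000572). Mir17hg, the host of a microRNA cluster linked to proliferation, fell from 3.81 ± 0.508 to 1.46 ± 0.519 CPM in Ova (log2 -1.37, SE 0.42, adjusted p = 0.0249). With IC it went from 5.67 ± 2.29 to 1.09 ± 0.586 CPM (log2 -2.25, SE 0.40, adjusted p = 0.000927). Its call in Ova ended when DMSO Ova of mouse C or iBET Ova of mouse B or C was omitted.

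Transcripts of the 18 proteins that build or assemble snoRNPs, the particles in which snoRNAs act, were all tested. With iBET in Ova 1 rose and 4 fell, and in IC 1 rose, 8 fell and 9 were not called, with medians of -0.23 and -0.53 beside 0.02 and -0.0037 over all genes. Of all genes, 31.3% were called in Ova and 34.8% in IC, 15.8% as lower. Gar1, a core protein of H/ACA particles, fell from 15.3 ± 2.72 to 5.85 ± 0.876 CPM in Ova (SD, n = 3; log2 -1.34, SE 0.36, adjusted p = 0.0138). With IC it went from 20.7 ± 11.4 to 5.00 ± 1.58 CPM (log2 -2.02, SE 0.35, adjusted p = 0.000844). Its Ova call ended when iBET Ova of mouse B was omitted. The genes that rose were Nop56, a core protein of C/D box particles, in Ova (log2 0.48, SE 0.15, adjusted p = 0.0302) and the assembly factor Pih1d1 in IC (log2 0.57, SE 0.14, adjusted p = 0.00660). The Nop56 call was lost in 8 of 27 alternatives, among them each fit without 1 of 5 Ova libraries, the exception being DMSO Ova of mouse A. The Pih1d1 call ended when any 1 mouse was omitted (edgeR adjusted p up to 0.0697).

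Transcripts for proteins of the bodies that hold Neat1 and Malat1 were read against the 31.3% of all genes called in Ova and 34.8% in IC. Of 14 paraspeckle protein transcripts, 2 rose and 2 fell in Ova, and 2 rose and 5 fell in IC. Cpsf6, a subunit of a pre-mRNA cleavage factor, rose in both stimuli, by log2 0.79 (SE 0.15, adjusted p = 0.00175) with Ova and 0.63 (SE 0.15, adjusted p = 0.00598) with IC. Tardbp, an RNA-binding protein of splicing, had log2 fold changes of -1.02 (SE 0.10, adjusted p = 1.3e-05) with Ova and -0.95 (SE 0.10, adjusted p = 1.8e-05) with IC. Of 18 nuclear speckle protein transcripts, 3 rose and 3 fell in Ova, and 3 rose and 4 fell in IC. The splicing factor Srsf2 rose by log2 0.84 (SE 0.23, adjusted p = 0.0165) with Ova and 0.95 (SE 0.23, adjusted p = 0.00790) with IC, the Ova call ending when DMSO Ova of mouse A was omitted. Srsf1, of the same family, fell by 0.67 with Ova (SE 0.09, adjusted p = 0.000129) and by 0.74 with IC. The largest fall in IC was that of Pnn (log2 -1.30, SE 0.41, adjusted p = 0.0296), a call that ended when DMSO IC of mouse A or any 1 of the 3 iBET IC libraries was omitted.

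Nonsense-mediated decay is the pathway that removes many spliced host transcripts. Of 16 transcripts of its factors, 2 rose and 0 fell in Ova, and 1 rose and 1 fell in IC. Of all genes, 31.3% and 34.8% were called in these comparisons. Smg5 rose by log2 0.70 (SE 0.13, adjusted p = 0.00125) with Ova and 0.53 (SE 0.12, adjusted p = 0.00548) with IC. Eif4a3, a core protein of the exon junction complex, fell by 0.34 in IC (SE 0.10, adjusted p = 0.0173), a call that ended when iBET IC of mouse B or C was omitted. Of the 89 genes tested in the 6 lists, edgeR called 0 with IC in DMSO (13 at an unadjusted p under 0.05, 1 called by DESeq2) and 0 with IC in iBET (7 at an unadjusted p under 0.05, 0 called by DESeq2, which judged 83).

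**Figure D5:**
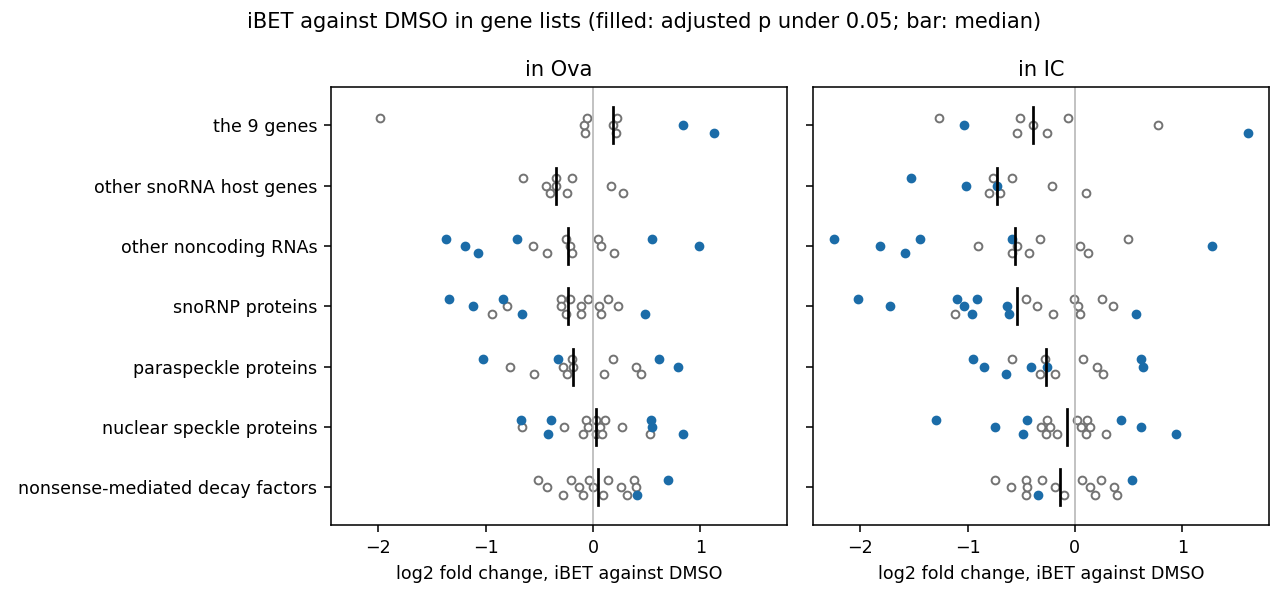
Log2 fold change of iBET against DMSO (x axis) for every tested gene of the 9 noncoding RNA genes and 6 related lists, in Ova (left) and IC (right); filled points passed an adjusted p of 0.05 and bars are list medians. In IC the medians of all 6 lists lie left of 0. They are -0.73 for other snoRNA host genes, -0.56 for other noncoding RNAs and -0.53 for snoRNP proteins. For paraspeckle proteins, decay factors and nuclear speckle proteins they are -0.27, -0.14 and -0.07.

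Genes with the most similar profile were ranked by Pearson correlation of log2 CPM over the 12 libraries, which share mice, drug groups and library composition, so these values are descriptions. For Neat1 they were Vti1a (0.952), Zwint (0.95) and Bzrap1 (0.949), and for Malat1 Ddx54 (0.968), Paf1 (0.949) and Zbtb43 (0.948). For Gas5 they were Atp5k (0.990), Hmgn3 (0.983) and Acbd3 (0.982), in a profile set mostly by the DMSO libraries of mouse A. Snhg12 was nearest to Sap30bp (0.880), Mir7050 (0.867) and A630089N07Rik (0.865), and Snhg1 to Srfbp1 (0.939), Pus1 (0.927), a pseudouridine synthase, and Baz1a (0.883). Snhg3 was nearest to Mbtd1 (0.921), Tbcc (0.897) and Smpd3 (0.889), and Snhg5 to Tmem80 (0.875), Ctage5 (0.849) and Zfp729a (0.835). Snhg6 was nearest to Mir3069 (0.895), BC002163 (0.854) and Zfp958 (0.854), and Snhg8 to Adam1a (0.841), Morc2a (0.837) and Ppp1r12b (0.819). No member of the 9 was among the 3 nearest genes of another. Among the 9, correlations ran from -0.451 (Snhg12 and Neat1) to 0.866 (Malat1 and Neat1), with Snhg1 and Snhg12 at 0.716.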

How the data were processed

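Counts per gene symbol were deposited by the authors, who trimmed reads (Trim Galore), aligned them to mm10 (HISAT2) and assigned them with featureCounts, and CASAVA and FastQC are also in the submitters' processing notes. Libraries were made from total RNA with a SMARTer pico input kit, which the labels call Universal and the study calls stranded, and the labels have cells sorted into lysis buffer where the study has them lysed in culture. Which annotation was used, whether strand was used and how multiply aligned reads were handled is not given in the sources used here. A second table deposited by the authors holds a normalized signal, which equalled the counts divided by DESeq2 size factors and was used as an alternative only.

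Testing used edgeR 4.0.16 under R 4.3.3. Genes were filtered by filterByExpr (minimum count 10), scaled by TMM and fitted in 1 robust quasi-likelihood model of the 12 libraries with 1 term per group. The 5 contrasts were tested two-sided with Benjamini-Hochberg adjustment over 11468 genes, and genes were called at an adjusted p under 0.05. SE is the absolute log2 fold change over the square root of F. CPM are TMM-normalized, and differences per mouse are taken on log2 CPM (prior count 2). The fit was tested on simulated data.

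The genes described, the related lists and the markers were chosen with earlier results of these data known. Genes named were the 9, coding genes starting within 2000 bases of or overlapping them, the called gene of each list with the largest rise and fall in each iBET contrast, and the 3 most correlated genes of each of the 9. Snhg15 and Snhg17 were named after their values were seen. Snhg15 was matched through its older symbol Gm11974.

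Alternatives were a DESeq2 1.42.0 fit, DESeq2 size factors within edgeR, omission of the filter, a filter of 10 or more counts in all libraries, a block for mouse (edgeR and DESeq2), a surrogate variable from sva 3.50.0, fits to the compared groups alone, the signal in limma 3.58.1 with a pseudocount of 1, voom with sample weights, removal of Rn45s, and omission of each library and each mouse. Omission of the DMSO libraries of mouse A was added after seeing the data. Libraries were paired by the replicate letters A, B and C, read as mice. Over deviations from group means, the 18 pairs from the same mouse correlated at -0.0725 to 0.542 (median 0.263), and the 36 other pairs at -0.499 to 0.271 (median -0.134).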

Additional observations from a re-analysis of the deposited data

How the results depend on the processing

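Depth limits the Snhg genes, with 5 to 220 counts per library, and 3 mice per group limit all comparisons. No scaling moved the median of all genes by over 0.1 on the log2 scale. Scaling itself sets the typical gene near no change, so this could not have revealed a shift common to all genes. No alternative called any of the genes it tested with IC in either treatment or in the interaction. DESeq2 gave no p for Gas5 and no adjusted p for Snhg3 with IC in iBET, Snhg3 and Snhg6 did not pass the filter of 10 counts in every library, and the compared groups alone give no interaction. With iBET in Ova the count of 2 became 1 without the filter (Neat1), with the compared groups alone (Neat1) and without the DMSO libraries of mouse A (Malat1), and it was 0 to 2 when 1 library or mouse was left out. It was 0 without DMSO Ova of mouse C, iBET Ova of mouse B or mouse C. In IC it was 2 to 3 over all alternatives, left-out libraries and mice included. With mouse as a replicate block the count was 2 in Ova and 3 in IC, Malat1 being added. The causes were not tested.

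Direction turned in at least 1 alternative for 8 of the 18 values of the iBET comparisons, all uncalled, and for 16 of the 27 values of the IC comparisons and the interaction, also uncalled. With iBET in Ova, the log2 fold change of Gas5 was 0.13 with voom and 0.34 without the DMSO libraries of mouse A, and -2.63 to 0.50 when 1 library or mouse was left out (0.33 without DMSO Ova of mouse A). With 1 library or mouse left out, Snhg1 was -0.17 to 0.022, Snhg3 -0.21 to 0.40, Snhg5 -0.22 to 0.0059, Snhg6 -0.25 to 0.085 and Snhg12 -0.093 to 0.34. Snhg5 was 0.023 with voom and Snhg6 0.051 with the signal in limma. In IC, Snhg3 was 0.0055 with a surrogate variable, 0.22 with voom, 0.33 without the DMSO libraries of mouse A and -0.79 to 0.36 when 1 library or mouse was left out. Snhg8 was 0.00088 with a surrogate variable and -0.16 to 0.069 when 1 library or mouse was left out.

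Without mouse A, Gas5 rose with iBET in Ova (adjusted p = 0.0282), and without mouse C, Snhg5 fell in IC (adjusted p = 0.0331). Counts of called genes in the 6 related lists moved by over 1.5 times in some alternatives, for example 0 to 5 (3 as reported) for the other snoRNA host genes and 4 to 12 (9 as reported) for snoRNP proteins in IC.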
